A study of Mus musculus with 6 samples.

Results

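Messenger RNA of 10 genes was followed in mouse liver, namely Hspa5, which encodes the chaperone BiP of the endoplasmic reticulum (ER), and 9 cofactors of BiP or ER genes of the type induced by the transcription factor ATF6: Hyou1, Sdf2l1, Creld2, Manf, Dnajb11, Dnajc3, Dnajb9, Herpud1 and Pdia4. They are 10 of the 25904 genes in the count table, were taken by gene name, and all 10 were among the 14606 genes with enough reads to be tested. The libraries came from livers of C57BL/6J mice, 3 of genotype Ptprd+/+ (wild type, WT 1 to WT 3) and 3 of genotype Ptprd+/- (heterozygous, Het 1 to Het 3). Ptprd encodes a receptor-type tyrosine phosphatase, and the kind of altered allele, the age and the sex of the mice are not stated in the labels. The series gives n = 3 per genotype without stating that each library is a separate mouse, so spreads and p-values measure the difference between libraries, which may be technical. Among the Het libraries, Het 3 was sequenced deepest. Het 2 and Het 3 stood apart from Het 1 and from the WT libraries in the clock genes Dbp and Arntl. Values without single Het libraries, or without Het 2 and Het 3 together, are given where a result moves. The 10 genes were chosen with their Het against WT difference in these same libraries known. That difference is therefore given as a description with no test, and the order of libraries within a genotype was not part of the choice.

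BiP is an ATPase of the HSP70 family that binds nascent and misfolded chains in the ER lumen. J proteins deliver clients to it and trigger ATP hydrolysis, and nucleotide exchange factors reset it. When unfolded protein accumulates, ATF6 moves to the Golgi and is cut there, and its freed cytosolic part enters the nucleus. It acts with the factor NF-Y at the ER stress response element (ERSE), while the spliced form of XBP1 and the PERK and ATF4 branch add further targets. The hepatocyte, which secretes most plasma proteins, depends heavily on this system.

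The promoters are shown first, because the group was named in part for induction by ATF6. A higher share of ER stress elements in the group may therefore follow from that choice. RefSeq start sites (GRCm38.p6, the mm10 assembly) were matched for 8 of the 10 genes by symbol, all but Manf and Hyou1, with a window of 300 bases that holds 250 bases before the start and 50 from it. The ERSE was searched as CCAAT, any 9 bases and CCACG, and ERSE-II as ATTGG, 1 base and CCACG, on both strands. An exact ERSE lay in 3 of the 8 promoters and an ERSE-II in 2, against 0.119% and 0.0365% of all 32851 promoters in the table. The 5 elements are listed to show the bases between the parts, 5′ to 3′ along the strand that carries the motif. Both parts, in capitals, match exactly because the search required it.
Hspa5 ERSE: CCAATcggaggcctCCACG
Creld2 ERSE: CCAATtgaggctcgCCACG
Dnajc3 ERSE: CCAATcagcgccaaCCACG
Herpud1 ERSE-II: ATTGGgCCACG
Dnajb11 ERSE-II: ATTGGcCCACG

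With the first transcribed base as position 0, the Hspa5 element spanned -65 to -47, the Dnajc3 element -105 to -87 and the Herpud1 element -52 to -42. The Creld2 element lay on the opposite strand at -126 to -108, and the Dnajb11 element lay inside the transcript at 7 to 17. The 250 bases before the start are printed for 3 genes to place the elements, in the direction of transcription, with the ERSE or ERSE-II in capitals. Hspa5 lies on the plus strand at chr2:34771840-34772089, Creld2 on the plus strand at chr15:88819396-88819645 and Herpud1 on the plus strand at chr8:94386179-94386428.
Hspa5: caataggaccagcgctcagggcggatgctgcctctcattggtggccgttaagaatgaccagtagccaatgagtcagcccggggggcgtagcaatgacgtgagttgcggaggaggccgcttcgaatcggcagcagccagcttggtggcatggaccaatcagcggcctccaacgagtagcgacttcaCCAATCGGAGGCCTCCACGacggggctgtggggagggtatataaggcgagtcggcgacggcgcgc
Creld2: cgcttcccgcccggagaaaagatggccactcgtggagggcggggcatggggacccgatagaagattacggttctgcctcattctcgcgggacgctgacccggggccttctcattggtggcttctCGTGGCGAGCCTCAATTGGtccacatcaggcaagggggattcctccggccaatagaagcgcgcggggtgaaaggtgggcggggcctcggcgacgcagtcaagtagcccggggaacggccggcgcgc
Herpud1: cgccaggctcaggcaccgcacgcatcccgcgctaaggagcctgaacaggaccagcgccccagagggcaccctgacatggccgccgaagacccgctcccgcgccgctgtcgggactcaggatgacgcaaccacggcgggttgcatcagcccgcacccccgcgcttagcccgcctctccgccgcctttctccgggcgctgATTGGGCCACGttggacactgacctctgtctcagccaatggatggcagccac

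The 2 parts of the element were common on their own. CCACG was found in all 8 promoters of the group and in 32.8% of all promoters, and CCAAT in all 8 and in 37.4%. ATTGG is CCAAT read on the other strand, so both parts are counted again inside each full element. The core of the unfolded protein response element, TGACGTG, occurred in 1 of the 8, in Hspa5 at -157 to -151, and in 2.01% of all promoters. Of the CARE, which is read by ATF4 and CHOP, only the form TGATG, 1 base and AAT was searched. That form occurred in 0 of the 8 and in 0.965% of all promoters. Forms with another last base were not searched. The Herpud1 sequence above holds such a form on the opposite strand, so the 0 does not mean that the group lacks the element. Sdf2l1, Dnajb9 and Pdia4 held the parts in other spacings. A match is a stretch of letters and not evidence of binding.

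**Figure D1:**
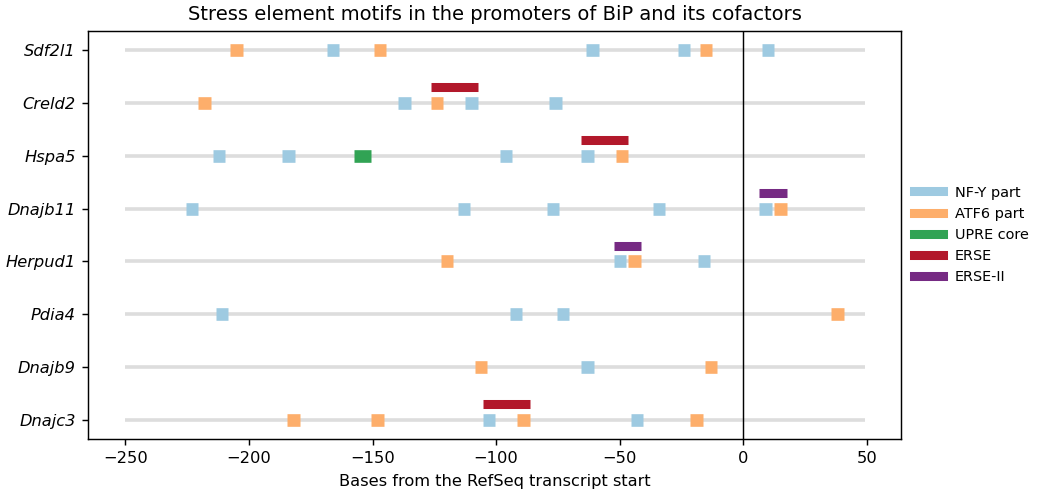
Positions of the motifs in the 8 matched promoters, in bases from the RefSeq transcript start (vertical line at 0), ordered by the Het over WT fold change of the gene. Blue marks CCAAT (NF-Y part), orange CCACG (ATF6 part), green TGACGTG (UPRE core), and the raised bars mark the 3 ERSE and 2 ERSE-II matches.

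BiP mRNA was the most abundant of the 10 in reads. Hspa5 (ENSMUSG00000026864, chromosome 2, 34771970 to 34777547, mm10) had 702, 591 and 632 CPM (counts-per-million, with library sizes scaled by TMM) in WT 1, WT 2 and WT 3, against 1128, 965 and 1336 in Het 1, Het 2 and Het 3. The lowest Het library was 1.37 times the highest WT library. The WT mean was 642 ± 56.2 CPM and the Het mean 1143 ± 186 CPM (SD, n = 3 each), a log2 fold change of 0.83 (SE 0.15). In bulk liver, more transcript per cell and more cells that express a gene cannot be told apart.

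Hyou1, Sdf2l1, Creld2 and Manf had the 4 largest folds. Hyou1 (chromosome 9, 44379490 to 44392369) encodes a large HSP70-type nucleotide exchange factor of BiP. It had 131, 109.7 and 126 CPM in the WT libraries against 263, 214 and 348 in the Het libraries, a log2 fold change of 1.17 (SE 0.18). Every Het library lay above every WT library, and the lowest was 1.63 times the highest WT library.

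Sdf2l1 (chromosome 16, 17130138 to 17132383) forms a complex with the J protein encoded by Dnajb11 that keeps clients from aggregating. It was the least abundant of the 10, with 6.60, 11.5 and 8.65 CPM in the WT livers against 25.5, 18.5 and 31.1 in the Het livers, a log2 fold change of 1.49 (SE 0.24). Its smallest count was 304 reads, where counting error alone is 5.74%, well under its SD of 27.8% of the mean in WT. The genotypes did not overlap. WT 2 was the highest WT library and WT 1 the lowest.

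Creld2 (chromosome 15, 88819646 to 88826681), an ER protein with a thioredoxin-like CXXC motif, had 20.2, 17.2 and 21.1 CPM in the WT livers against 49.2, 35.9 and 70.4 in the Het livers. Its log2 fold change was 1.41 (SE 0.23), with Het 3 the highest and Het 2 the lowest Het library. Creld2 and Hspa5 both carry an ERSE, at log2 fold changes of 1.41 and 0.83.

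Manf (chromosome 9, 106838312 to 106891979) encodes a secreted and ER-resident protein that binds BiP and slows its nucleotide release. It had 49.1, 41.5 and 45.7 CPM in the WT livers against 118, 87.9 and 126 in the Het livers, and the lowest Het library was 1.79 times the highest WT library, the widest gap among the 10 genes. The log2 fold change was 1.28 (SE 0.15). In GENCODE M21, 4.71% of its exon bases are also exons of the antisense gene 4930524O07Rik, 4.14% of Dcaf1 on the opposite strand and 0.397% of Rbm15b on the same strand, and the strand setting of the counting is not stated.

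The 3 J proteins did not behave alike. Dnajb11 (ERdj3, chromosome 16, 22857845 to 22879634), a soluble J protein that hands unfolded chains to BiP, had 62.3, 68.5 and 61.2 CPM in the WT livers against 98.8, 93.9 and 108 in the Het livers. Its log2 fold change of 0.64 (SE 0.10) came with narrow spreads of 3.91 and 6.87 CPM (SD), and its genotypes did not overlap. Dnajb9 (ERdj4, chromosome 12, 44205559 to 44210326) supplies clients for degradation and represses the sensor IRE1. It had 27.5, 28.6 and 33.8 CPM in the WT livers against 31.2, 36.1 and 60.8 in the Het livers, so Het 1 lay inside the WT range and Het 3 stood alone. Its log2 fold change was 0.51 (SE 0.24), and 0.17 without Het 3. Dnajc3 (p58IPK, chromosome 14, 118937976 to 118981697), a J protein also known as an inhibitor of PERK, had 180.3, 199.6 and 192 CPM in the WT livers against 193, 214 and 228 in the Het livers. Het 1 again lay inside the WT range, and the log2 fold change of 0.15 (SE 0.10) was the smallest of the 10, at 0.09 without Het 3. An exact ERSE was therefore present both in the gene with the smallest fold and in Creld2, and absent in this window from Sdf2l1, which had the largest.

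Herpud1 (chromosome 8, 94386438 to 94395377) encodes a membrane protein that organises the ER-associated degradation complex. It had 426, 272 and 423 CPM in the WT livers against 445, 547 and 682 in the Het livers. The genotypes were separate by a margin of 1.05-fold only, with WT 2 low and Het 1 close to WT 1 and WT 3, and the log2 fold change was 0.58 (SE 0.21). Pdia4 (ERp72, chromosome 6, 47796141 to 47813430), a protein disulfide isomerase that forms and rearranges disulfide bonds in the BiP complex, had 180.1, 190.1 and 178 CPM in the WT livers against 274, 239 and 270.1 in the Het livers. It had one of the smaller log2 fold changes, 0.52 (SE 0.10), yet with an SD of 6.47 CPM in WT and 19.2 CPM in Het its genotypes were clearly apart.

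**Figure D2:**
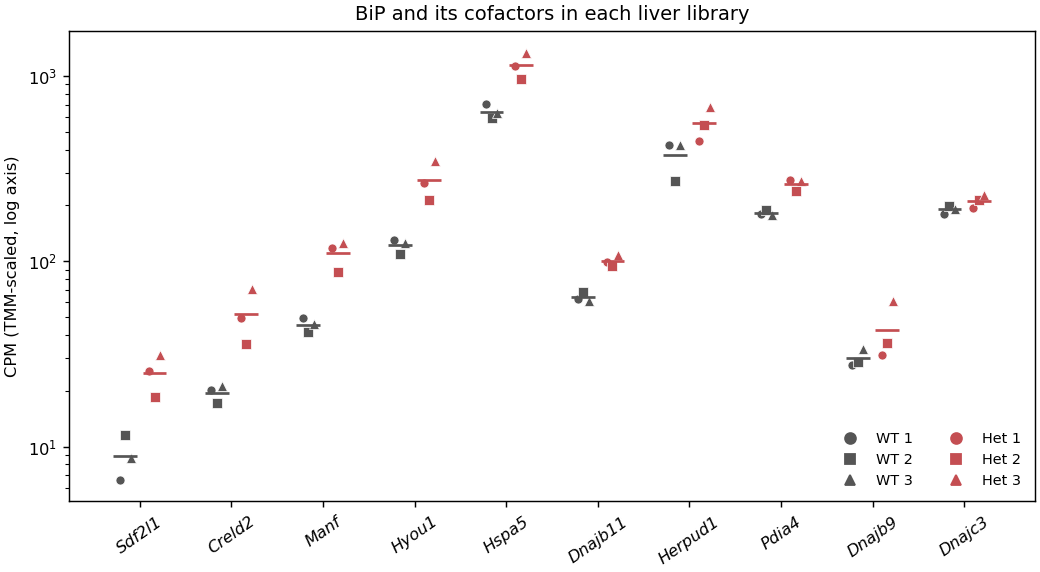
CPM of the 10 genes in each library on a log axis, ordered by fold change, with WT in grey and Het in red, symbols for the replicate number and a short line at each genotype's mean (n = 3). Grey and red points overlap in Dnajb9 and Dnajc3, and Sdf2l1 to Dnajb11 are well separated.

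Over the group, the median log2 fold change was 0.74 and all 10 values were above 0, against a median of 0.00 over all 14606 tested genes. In 8 of the 10 genes every Het library exceeded every WT library, as did 7.15% of all tested genes. Since the genes were picked for this difference, nothing is read from that contrast of shares. Leaving out any 1 library moved the median between 0.65 and 0.82. The summed level of the 10 genes was 1785, 1530 and 1720 CPM in the WT livers against 2626, 2450 and 3259 in the Het livers, so together they took 0.161 to 0.179% of reads in WT and 0.245 to 0.333% in Het.

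Levels between genes were compared per kilobase of exon, taken over all exons of a gene in GENCODE M21. In WT, Herpud1 (160 ± 37.7 CPM per kb) and Hspa5 (152 ± 13.3 CPM per kb) led and did not differ beyond their spread (SD, n = 3). Pdia4 followed at 76.2 ± 2.70 and Dnajc3 at 37.1 ± 1.90 CPM per kb. Dnajb11, Hyou1, Creld2, Manf and Dnajb9 lay between 19.8 and 11.7 CPM per kb, and Sdf2l1 was last at 8.06 ± 2.24 CPM per kb. In Het, Hspa5 came first at 270.2 ± 44.0 CPM per kb and Herpud1 second at 239 ± 50.9, again within their spread. Dnajc3 had 41.1 ± 3.43, Hyou1 38.0 ± 9.39 and Creld2 37.9 ± 12.8 CPM per kb in Het, so Dnajc3, above both in WT, lay within their spread. The order depends on the length used. With the authors' deposited median transcript length, which is 647 bases for Hspa5 against 4229 exon bases here, Hspa5 in WT was at 992 and Herpud1 at 481 CPM per kb.

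The Het libraries differed among themselves in a regular way. Het 3 had the highest level of the 3 Het libraries in 9 of the 10 genes, while it did so in 32.8% of all tested genes, and the exception was Pdia4. Het 2 was the lowest Het library in 7 of the 10 genes, against 33.1% of all tested genes, and Het 1 was the lowest in Dnajc3, Dnajb9 and Herpud1. Genes of 1 pathway are not independent of each other, so these counts are a description. Over the WT mean, Het 1, Het 2 and Het 3 stood at 2.52-, 1.84- and 3.61-fold for Creld2. The same libraries stood at 2.15-, 1.75- and 2.85-fold for Hyou1. For Dnajb9 they stood at 1.04-, 1.20- and 2.03-fold, and for Herpud1 at 1.19-, 1.46- and 1.83-fold. Het 1 was thus second for BiP, Hyou1, Sdf2l1, Creld2, Manf and Dnajb11, first for Pdia4, and last for Herpud1, Dnajb9 and Dnajc3.

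The WT libraries had no such common order. WT 2 was the lowest in 5 genes (Manf, Hyou1, Creld2, Hspa5 and Herpud1) and the highest in 4 (Sdf2l1, Dnajb11, Dnajc3 and Pdia4). The median SD of log2 CPM over the 10 genes was 0.13 in WT and 0.29 in Het, beside 0.16 and 0.21 over all tested genes. Over the 5793 genes at least as abundant as the lowest of the 10 it was 0.11 and 0.15, so against these the 10 had the larger value in both genotypes. That set has a floor in abundance and is not otherwise matched to the 10. The difference in spread between genotypes was not tested.

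**Figure D3:**
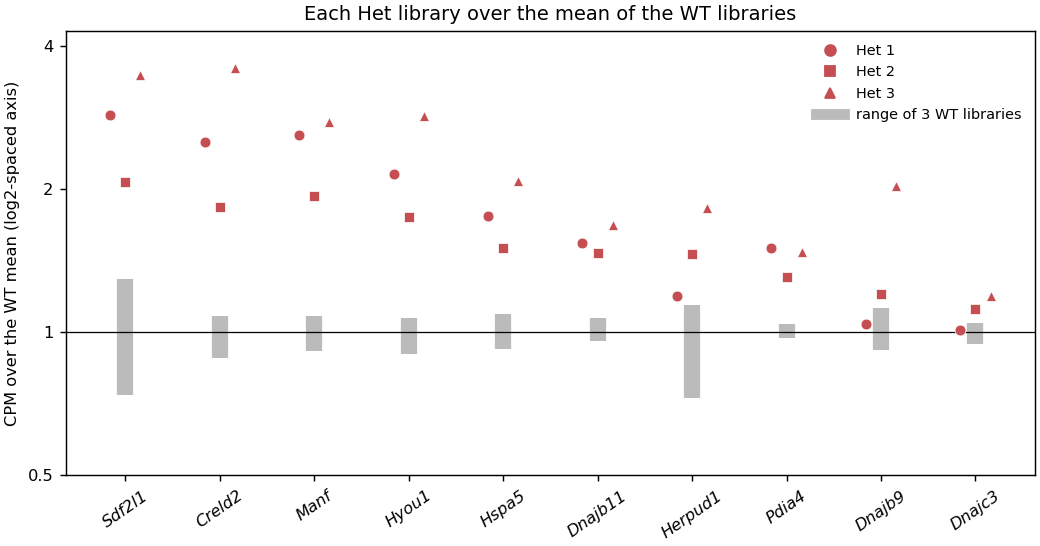
CPM of each Het library divided by the WT mean of the gene, on a log2-spaced axis, with the grey bar giving the range of the 3 WT libraries. Het 3 (triangles) is highest in 9 of 10 genes, and Het 1 (circles) lies inside the grey bar for Dnajb9 and Dnajc3.

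Other measures set the Het libraries apart too. Het 3 was the deepest library, with 72954187 counted reads against 37924266 to 48526395 in the other five. Clock genes divided the Het group. Dbp, a clock output factor, was at 18.9, 29.6 and 14.4 CPM in WT and 13.5 in Het 1, but 129 and 122 in Het 2 and Het 3. Arntl, which encodes the core activator BMAL1, was at 17.2, 11.8 and 19.7 CPM in WT and 21.4 in Het 1, but 2.41 and 1.92 in Het 2 and Het 3. In both genes Het 1 thus lay near the WT libraries. In a fit that left out Het 2 and Het 3, with Het 1 as the lone Het library, the log2 fold changes were 0.02 for Dnajc3, 0.06 for Dnajb9 and 0.26 for Herpud1, while the median over the 10 genes was 0.72. That fit assumes the lone library to vary like the others. The clock list had 3 genes higher and 2 lower at an unadjusted p under 0.05 and 0 called by DESeq2, and its median log2 fold change was 0.31 over 16 genes. Without 1 library that median ran from -0.03 (without Het 2) to 0.65 (without Het 1), with 0.13 without Het 3 and 0.19 without WT 3, and it was -0.27 without Het 2 and Het 3 together. By limma-voom it was 0.12, and 0.14 with the replicate number as a block. By the naming rule its genes were Clock (-0.66, SE 0.19), Nr1d1 (1.54, SE 0.45) and Hlf (-0.05, SE 0.19). The part of the clock and of depth in these differences was not tested.

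The cofactors did not keep a fixed ratio to BiP. For every 1000 Hspa5 reads, Manf had 70.0, 70.2 and 72.3 reads in WT and 105, 91.1 and 94.1 reads in Het. Hyou1 had 186, 185 and 199 reads in WT and 233, 222 and 261 reads in Het, and Creld2 28.8, 29.1 and 33.5 in WT and 43.6, 37.2 and 52.7 in Het. In these 3 the ratio was higher in every Het library than in every WT library. The WT ratio of Manf was tight, with an SD of 1.31 reads around a mean of 70.8, although Manf and Hspa5 each varied more between those libraries. For Hyou1 the WT SD was 7.51 around a mean of 190, and for Creld2 it was 2.62 around 30.5.

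In Dnajc3 and Pdia4 the ratio was lower in Het. Dnajc3 had 257, 338 and 304 reads per 1000 Hspa5 reads in WT and 171, 221 and 171 in Het, and Pdia4 256, 322 and 282 in WT and 243, 248 and 202 in Het. Their ratios to BiP were lower in every Het library than in every WT library, while their own CPM was higher on average. Hspa5 itself was at most 702 CPM in WT and at least 965 in Het. A gene of steady CPM would therefore also have a lower ratio in Het, so this is no trait of Dnajc3 or Pdia4. The share of all tested genes with separate ratios, higher or lower, was not computed. Sdf2l1, Dnajb11, Dnajb9 and Herpud1 had ratios that overlapped between the genotypes, with Sdf2l1 at 9.40 to 19.5 reads in WT and 19.2 to 23.2 in Het. These ratios come from the same contrast as the choice of the genes and are not tested.

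**Figure D4:**
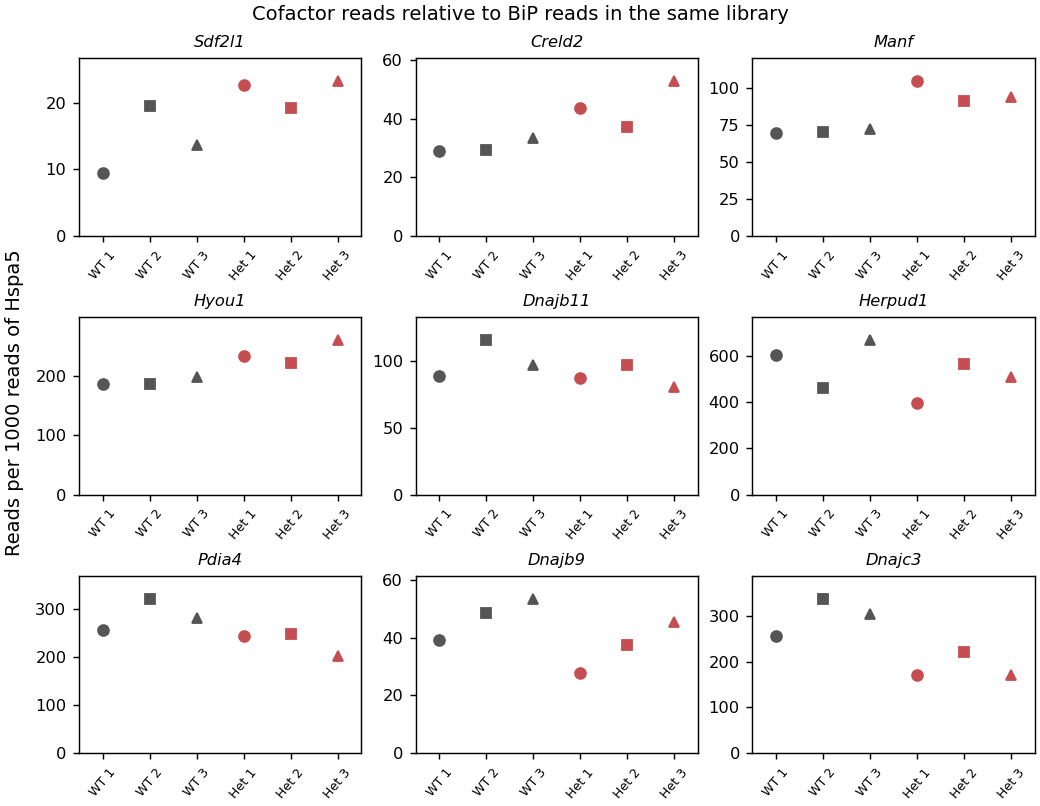
Reads of each cofactor per 1000 Hspa5 reads in the same library, 1 panel per gene, each linear axis starting at 0, with WT in grey and Het in red. The Het points lie above the WT points in Creld2, Manf and Hyou1 and below them in Pdia4 and Dnajc3.

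Other genes of the pathway were placed beside the group, from lists chosen by function with earlier results of these data known. Of the 14606 genes the quasi-likelihood test of edgeR called 0% higher and 0% lower at an adjusted p under 0.05. It gave an unadjusted p under 0.05 to 3.39% on the higher and 3.77% on the lower side. DESeq2 called 0.233% higher and 0.219% lower at its adjusted threshold, while limma-voom called 0%, with 7.33% at an unadjusted p under 0.05 in either direction. By edgeR and by limma-voom 0 list genes were called, and the counts below are at edgeR's unadjusted p under 0.05.

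Further BiP partners, the other ER J proteins, the exchange factor Sil1, the AMPylating enzyme Ficd and Sdf2 (also on the list of relatives), had a median of 0.00 in log2 fold change. Among the 8 genes 1 was at an unadjusted p under 0.05 on the higher side and 0 on the lower. That gene was Ficd, with 7.14, 7.89 and 8.38 CPM in the WT livers against 10.6, 8.24 and 14.0 in the Het livers and an edgeR adjusted p of 0.694. Dnajc10, the J protein with disulfide reductase activity, had a log2 fold change of -0.02 (SE 0.10). DESeq2 called 0 of the 8.

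Family relatives were listed to set each gene against a related protein. The median log2 fold change of the 12 was 0.13, and 4 were at an unadjusted p under 0.05, all higher, of which DESeq2 called Hsph1. Hsph1, a cytosolic relative of Hyou1, had 0.84 (SE 0.21) against 1.17, and Pdia3, a disulfide isomerase related to Pdia4, had 0.29 (SE 0.10) against 0.52. Hspa4, a further relative of Hyou1, had 0.13 (SE 0.09), and the cytosolic J proteins Dnajb1 and Dnajb4 had 0.44 (SE 0.22) and 0.04 (SE 0.13). Sdf2, the relative of Sdf2l1, had 0.14 (SE 0.12) against 1.49, and Herpud2 had -0.06 (SE 0.09) against 0.58 for Herpud1. Creld1 had 0.42 (SE 0.13) against 1.41 for Creld2. Cdnf, the relative of Manf, was barely expressed, at 0.23 to 0.47 CPM over the 6 libraries. Of the HSP70 proteins outside the ER lumen, mitochondrial Hspa9 had a log2 fold change of 0.03 (SE 0.10) and cytosolic Hspa8 0.53 (SE 0.18), and Hspa13, an HSP70 of the ER and microsomes, had 0.04 (SE 0.12), beside 0.83 for Hspa5. These differences between relatives were not tested.

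Further ER folding and degradation genes had a median of 0.24 in log2 fold change, and 21 of the 23 matched by name were above 0, while the listed Vimp, in the table as Selenos (0.26, SE 0.11), is left out of these counts. Over the alternative fits that median ran from 0.21 (without Het 1) to 0.27 (without Het 2 and Het 3 together), with 0.22 without Het 3 or without WT 3. At an unadjusted p under 0.05 there were 12 higher and 0 lower, and DESeq2 called 2 higher. Syvn1, the ubiquitin ligase HRD1 of ER-associated degradation, had 49.3, 49.4 and 54.6 CPM in the WT livers against 102, 74.8 and 141 in the Het livers. Its log2 fold change was 1.05 (SE 0.21), with an adjusted p of 0.514 by edgeR and 0.000774 by DESeq2, and its Het order, with Het 3 highest and Het 2 lowest, matched that of BiP. Ero1lb, an oxidase for disulfide isomerases, had 0.56 (SE 0.14), and Derl2, a channel protein of the degradation complex, had 0.04 (SE 0.13). Derl3, which DESeq2 also called (adjusted p 0.0233) and which was picked with its values known, showed 0.22, 0.98 and 0.59 CPM in the WT livers against 1.23, 1.81 and 5.76 in the Het livers.

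Sensors and transducers of ER stress had a median of 0.26 in log2 fold change, and 0.04 without Het 2 and Het 3 together. Of 9 genes 2 were at an unadjusted p under 0.05, both higher, and DESeq2 called 0. Creb3l3, the liver-enriched membrane-bound factor CREBH, had 0.39 (SE 0.14), Creb3l2 had 0.52 (SE 0.21) and Mbtps1, the Golgi protease that makes the first cut in ATF6, had 0.02 (SE 0.10). Atf6 and Xbp1, chosen after their values were seen, had 0.17 (SE 0.11) and 0.34 (SE 0.16), with overlapping genotypes for both. The counts are per gene and do not show splicing of Xbp1 or cutting of ATF6.

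Targets of ATF4 and CHOP had a median of 0.11 in log2 fold change over 14 tested genes, with 2 higher and 0 lower at an unadjusted p under 0.05 and 1 called by DESeq2. That median was 0.04 without Het 1, 0.30 without Het 2, 0.32 without WT 3 and 0.34 without Het 2 and Het 3 together. Trib3, a pseudokinase, had 1.76, 1.62 and 1.28 CPM in the WT livers against 2.36, 4.56 and 3.61 in the Het livers, with Het 2 the highest. Ddit3, which encodes CHOP, had 0.82 (SE 0.27), and Fgf21, a stress-induced hormone, had -0.08 (SE 0.37).

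Cytosolic heat shock genes had a median of 0.36 in log2 fold change over 12 tested genes, and 0.16 without Het 3. At an unadjusted p under 0.05 there were 3 higher and 0 lower, and DESeq2 called 1, Hsph1, an HSP110 exchange factor, at a log2 fold change of 0.84 (SE 0.21). Hspa4l had 0.05 (SE 0.18). The list's level per library, the median of log2 CPM after subtracting each gene's mean, was -0.14, -0.25 and -0.08 in WT and 0.07, 0.03 and 0.42 in Het. The level of BiP and its cofactors on the same scale was -0.35, -0.43 and -0.41 in WT and 0.37, 0.22 and 0.72 in Het.

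**Figure D5:**
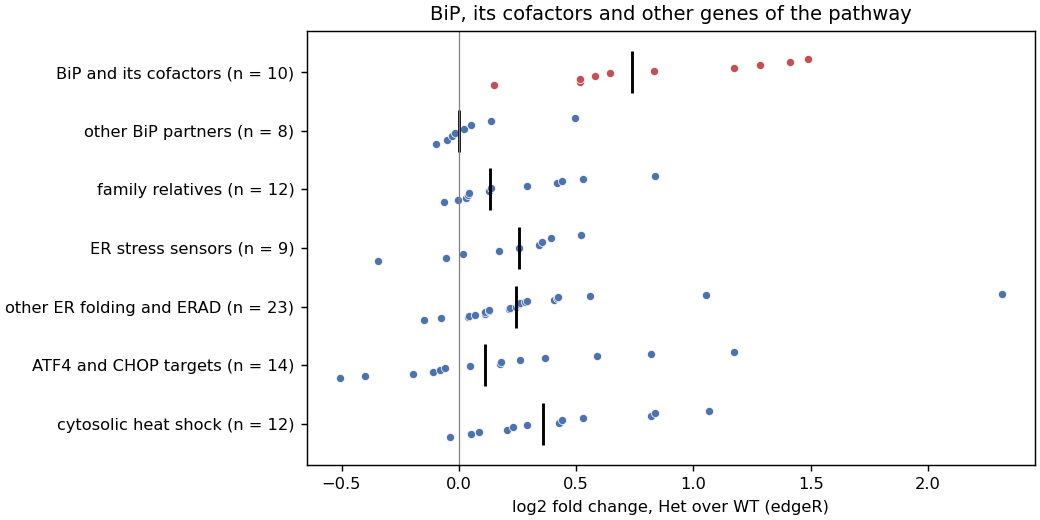
Log2 fold change of Het over WT from edgeR for each gene of the group (red) and of 6 other lists (blue), with a black line at each median and n the number of tested genes. The group's median lies at 0.74 and those of the other lists between 0.00 and 0.36, and a few genes occur in 2 lists.

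Genes that carry the same promoter element were taken next by the motif alone, after the promoters of the group had been searched. Besides the 5 genes above, 44 gene symbols had an exact ERSE or ERSE-II in a RefSeq promoter, and 24 of these were tested, matched to the count table by symbol and, for Ero1lb (Ero1b in RefSeq), by an older symbol. Their median log2 fold change was 0.16, with 16 above 0, beside 0.00 over all tested genes. In 9 of the 24 every Het library exceeded every WT library and in 2 every one was lower, beside 7.15% and 6.72% of all tested genes. For the ERSE alone the counts were 7 and 1 of 17.

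The 7 ERSE genes with separate, higher Het libraries were Derl3, Syvn1, Alg12, Ero1lb, Pdia6, Calr and Hsp90b1, named after their values were seen. Of these, 6 were already in the ER folding and degradation list. Alg12, a mannosyltransferase that builds the glycan precursor, had 7.14, 6.29 and 7.01 CPM in the WT livers against 9.85, 10.5 and 11.6 in the Het livers. Calr, the lectin chaperone calreticulin, had 553, 625 and 567 CPM in the WT livers against 827, 778 and 725 in the Het livers, with Het 1 highest rather than Het 3. Hsp90b1, the ER HSP90 known as GRP94, had 827, 924 and 810 CPM in the WT livers against 982, 1001 and 1072 in the Het livers, a log2 fold change of 0.25 (SE 0.11) beside 0.83 for Hspa5. Acacb, an acetyl-CoA carboxylase, also held an ERSE and was lower, with 325, 239.9 and 216 CPM in the WT livers against 91.3, 178 and 77.2 in the Het livers.

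The 6 genes with the library profile nearest to the group were Arsa, Gmppb, Syvn1, Hsph1, Rtkn and Pcbp4. Nearness was the root mean square difference from the group's mean centred log2 CPM over the 6 libraries, among 7367 other genes with a mean of 10 CPM or more, and it ran from 0.12 to 0.16 log2 units. Hspa5 itself was at 0.08 and Sdf2l1 at 0.42, since the measure counts the size of a difference as well as its shape. Gmppb, which makes the mannose donor for glycosylation, had 13.8, 10.5 and 11.4 CPM in the WT livers against 19.4, 20.5 and 23.5 in the Het livers. Arsa, the lysosomal enzyme arylsulfatase A, had 18.7, 19.5 and 22.3 CPM in the WT livers against 30.5, 29.3 and 35.9 in the Het livers. The measure includes the genotype difference, so separate genotypes are built into these genes.

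Ptprd was at 127 to 132 CPM in WT and 54.1 to 78.1 CPM in Het, so the libraries matched their labels. Total counts ranged from 37924266 to 72954187, and the libraries of a genotype differed from each other by far more than sampling noise. Hepatocyte markers were abundant, and the 5 measured were Alb, Apoa1, Ttr, Serpina1c and Cyp2e1. Their summed level was 127973 to 145126 CPM of total counts in WT and 146018 to 168015 in Het, without overlap. Most of it came from Alb, at 105521 to 115643 CPM in WT and 118221 to 135053 in Het. Alb and Ttr were higher in every Het library than in every WT library, while Apoa1, Serpina1c and Cyp2e1 overlapped. Plasma cells and exocrine pancreas also carry much BiP. Of the 8 plasma cell markers measured, 7 were tested, of which 2 were above 0 and 5 below 0 in log2 fold change. Jchain, the joining chain of secreted antibodies, was at 2.83 to 6.29 CPM in WT and 2.23 to 2.63 CPM in Het. Ighm, the mu heavy chain, was at 21.7 to 44.4 CPM in WT and 8.48 to 16.2 CPM in Het (DESeq2 adjusted p 0.0164, edgeR 0.648). Derl3, which is on this list as well as on the ER degradation list, went the other way, from 0.22 to 0.98 CPM in WT to 1.23 to 5.76 CPM in Het. Tnfrsf17 had at most 4 reads in any library. The 8 summed to 318 to 462 CPM in WT and 275 to 381 in Het, most of it from Sdc1. Of the 6 pancreas markers measured, which summed to 9.64 to 16.4 CPM in WT and 12.3 to 19.9 in Het with Cela1 as nearly all of it, Cpb1, Prss2 and Ctrb1 had at most 2 reads in any library. Kupffer cell markers summed to 357 to 533 CPM in WT and 242 to 422 in Het, and sinusoidal endothelial markers to 225 to 242 and 184 to 262. Stellate markers summed to 263 to 299.9 CPM in WT and 212 to 259.8 in Het, also without overlap, and most of it came from Dcn. In TMM-scaled CPM every Het library was below every WT library in Dcn and above every one in Des. Lrat, Reln and Col1a1 overlapped between the genotypes. Cholangiocyte markers summed to 47.9 to 60.9 CPM in WT and 43.0 to 56.0 in Het. The part of cell composition in the differences was not tested.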

How the data were processed

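In all, 6 strand-specific polyadenylated RNA libraries of mouse liver were analysed. The authors deposited raw read counts per Ensembl gene, made per the submitters' processing notes with cutadapt 1.10, STAR 2.5.3a and HTSeq 0.6.1p1 on mm10. The annotation release, strand setting and treatment of multi-mapping reads are not stated in the labels. The 12 normalized columns and the authors' differential expression table were not used.

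Genes were filtered with filterByExpr (14606 kept, 99.955% of counts) and scaled by TMM. Het was compared with WT by edgeR 4.0.16 (R 4.3.3) with a quasi-likelihood test, two-sided, genotype as the only term, p-values adjusted by Benjamini-Hochberg over the whole tested set, and a threshold of 0.05. DESeq2 1.42.0 and limma-voom (limma 3.58.1) were alternatives. CPM uses TMM-scaled library sizes, except marker sums, and log2 CPM a prior count of 2. SEs are edgeR log2 fold changes divided by the root of F. The fit was tested on simulated data with 50 changed genes at each fold. There edgeR recovered 18% of the genes changed 1.5-fold and 82% of those changed 2-fold, and DESeq2 38% and 92%. These rates need not hold for the real libraries. The planned protein comparison was not run. In the named-gene rule, each list gave its 2 tested genes with the smallest and 1 with the largest unadjusted p, and the 6 nearest genes, the relatives, Ptprd, Dbp and Arntl were added. Of the marker lists, sums and a few defining genes are given. Members, lists and motifs were chosen with earlier results of these data known.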

Additional observations from a re-analysis of the deposited data

How the results depend on the processing

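Over all 14606 genes 0 were called by edgeR, beside 1045 at an unadjusted p under 0.05. DESeq2 called 66 and edgeR without a filter on low counts called 73, while leaving out 1 library at a time gave 0 to 1, the 1 without Het 2. Among the 89 tested genes of the other pathway and clock lists 0 were called, with 4 by DESeq2 and 6 without the filter. The cause was not tested. Under the 14 alternatives the median log2 fold change of the 10 genes ranged from 0.65 to 0.82, and 8 to 10 of them had separate genotypes. The number was 9 without WT 2 or without WT 3 and 10 without Het 1, where fewer libraries make separation easier. Every Het library exceeded every WT library in 7.15% of all tested genes in the main fit. That share was 11.1% without WT 2, 13% without WT 3, 11% without Het 1 and 31.2% without Het 2 and Het 3 together. Among the 10 genes, the log2 fold changes that moved by more than the spread between libraries were those of Dnajb9 (0.06) and Dnajc3 (0.02). Both moved without Het 2 and Het 3 together, where fewer samples remain. Medians of the other lists that moved are given with each list. RLE and upper quartile scaling kept the fold change of each of the 10 genes within that spread. Het 3 was highest in 9 of 10 genes in every setting that kept all Het libraries. The limma-voom and replicate block settings use the CPM of the main fit. They could therefore change neither that order nor the number of genes with separate genotypes. With the replicate number as a block, edgeR called 0 genes and 1103 had an unadjusted p under 0.05. The deviations of same-numbered libraries had correlations over genes of -0.07, 0.12 and 0.15. Over all pairs of a WT and a Het library these ran from -0.30 to 0.18. With 3 libraries per genotype they cannot tell whether the numbers mark pairs.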
